A study of Mus musculus with 6 samples.

Results

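CpG methylation at 4 glial genes, Olig1, Olig2, Mbp and Gfap, was described in mouse neocortex at postnatal day 5 by reduced representation bisulfite sequencing (RRBS), which reads DNA cut by the enzyme MspI at CCGG sites. CpGs were taken when they had at least 10 reads, both strands added, in at least 2 samples per genotype. They had to lie in 3 intervals of the mm39 genome: chr16:91010000-91080000 around Olig1 and Olig2, chr18:82485000-82610000 around Mbp, and chr11:102770000-102795000 around Gfap. This left 326 CpGs of 881438 in the whole series: 150 in the Olig interval, 131 in the Mbp interval and 45 in the Gfap interval. Of the 326, 185 had 10 reads in all 6 samples. The samples were 3 wild-type (WT) and 3 Chd8+/- neocortices, all P5, where Chd8+/- stands for heterozygosity of the chromatin remodeller gene Chd8, the mouse counterpart of the gene behind a human neurodevelopmental disorder. The series asked how the methylome of such neocortex changes. The labels give neither the kind of Chd8 allele nor whether the samples of a group were separate animals, so p-values measure only the spread between these samples, which may be technical.

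Olig2 is a basic helix-loop-helix transcription factor that sets up oligodendrocyte precursors, and Olig1, its neighbour on the same chromosome, acts in the same lineage and in the maturation of its cells. Mbp encodes myelin basic protein, a main protein of the myelin sheath, and the locus also makes Golli transcripts from a start upstream of the classical one. Gfap encodes the intermediate filament of astrocytes. Dense CpG stretches at gene starts are unmethylated in most tissues whether or not the gene is active, and genes of developmental transcription factors often lie in wide unmethylated valleys, whereas CpG-poor starts and gene bodies are mostly methylated. RNA was not measured here, so the glial identity of the genes rests on their names and no marker level could be checked. In bulk DNA a share of methylated reads can come from a share of cells or from alleles that differ within cells of one type, and these cannot be told apart. How far the levels below follow the share of glia was not tested.

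Gene starts are needed to speak of promoters, and were found by laying RefSeq promoter sequences over the CpGs that the libraries list. The sequences of 3 promoters show how differently RRBS can see these genes. They are given from 250 bases before the start, 5′ to 3′, from the RefSeq tables of build GRCm38.p6. In the first and second, capitals mark each CG that at least 1 library lists. In the third, capitals mark every CG.
Olig2: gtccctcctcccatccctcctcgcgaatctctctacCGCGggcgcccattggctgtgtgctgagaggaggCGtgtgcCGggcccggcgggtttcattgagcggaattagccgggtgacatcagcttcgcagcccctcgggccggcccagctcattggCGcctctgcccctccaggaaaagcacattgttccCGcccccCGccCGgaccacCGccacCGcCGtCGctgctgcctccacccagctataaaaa
Ccdc103: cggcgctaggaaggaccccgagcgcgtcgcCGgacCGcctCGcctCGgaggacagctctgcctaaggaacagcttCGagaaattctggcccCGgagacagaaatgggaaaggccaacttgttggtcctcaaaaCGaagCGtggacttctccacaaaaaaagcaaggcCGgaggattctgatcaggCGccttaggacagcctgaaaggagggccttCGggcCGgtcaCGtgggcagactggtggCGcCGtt
Gfap: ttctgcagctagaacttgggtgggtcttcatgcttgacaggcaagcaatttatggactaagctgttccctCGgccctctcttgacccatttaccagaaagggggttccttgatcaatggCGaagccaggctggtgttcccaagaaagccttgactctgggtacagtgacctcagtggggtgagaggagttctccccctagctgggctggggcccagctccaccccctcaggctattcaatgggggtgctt
The Olig2 stretch has 22 CG and 5 CCGG, and 12 of its CG were listed. With the 50 bases after the start included, 12 CpGs matched at a single place, against 4 at the next best one, which put the Olig2 start at position 91022438 of chromosome 16 (mm39, plus strand) and the printed bases at chr16:91022188-91022437. Ccdc103 was shown because its promoter, and not that of Gfap, holds the dense CpGs of the Gfap interval. Its gene encodes a protein needed to assemble the dynein arms of motile cilia. It was placed with 17 matches, against 5 at the next best place, with its start at position 102772050 of chromosome 11 (plus strand) and the printed bases at chr11:102771800-102772049. The Gfap stretch, read on the minus strand, has 2 CG and no CCGG, and the whole promoter sequence has 3 CG. Among all promoter sequences the median was 7 CG and 1 CCGG, 30.9% had as few CG as Gfap, 18.9% as many as Olig2, and 53.5% held at least 1 CCGG. These motifs, searched on both strands at once since each is its own reverse complement, describe only what the letters contain. With 3 CG the Gfap promoter could not be placed, and the start positions of Olig1 and Mbp were not placed either. Their CpGs are therefore described by position, with no label of promoter or gene body.

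Depth set what could be seen. Summed coverage ran from 32285980 to 54818138 per library, with the 3 WT libraries the deepest. Replicate 3 of each genotype stood apart in its share of coverage on chromosome X, at 2.58% in WT and 2.56% in Chd8+/-, where the remaining 4 libraries had 1.18% to 1.21%. Of the 326 CpGs, the WT libraries covered 98.5%, 91.4% and 93.9% at 10 reads and the Chd8+/- libraries 88.3%, 85.0% and 88.3%. The median depth at covered CpGs was 31, 40 and 26.5 reads in WT and 30.5, 24 and 26 reads in Chd8+/-. Cytosines outside CpGs that stayed unconverted made up 0.316% to 0.348%, so levels of that order are near the conversion error. The mean autosomal level was 47.7% in each WT library and 47.8%, 48.1% and 49.0% in the Chd8+/- libraries.

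Olig2 sat in a wide stretch of nearly unmethylated DNA. Counting consecutive windows of 1000 bp with a mean level under 10% and at least 3 CpGs, and bridging up to 2 windows without a value, the run around Olig2 covered chr16:91018001-91030000. It was 12 kb long, from −4.437 kb to 7.562 kb relative to the Olig2 start. Of its windows 8 had a value, and the rest held fewer than 3 CpGs and were bridged. The length of a run thus depends on where RRBS reads at least 3 CpGs. The run held 109 of the 150 CpGs of the interval, of which 41 had no methylated read in any sample that covered them and 4 had a mean level over 10%. The highest CpG, at position 91028673 and 6.235 kb after the start, had a mean of 33.7%, with 31.1%, 90.0% and 27.3% in WT and 20% and 0% in Chd8+/- replicates 1 and 3. All but 2 of those 5 values rest on 10 or 11 reads, and replicate 2 of Chd8+/- did not cover it. On the autosomes 15527 such runs were found, with a median length of 1 kb. Of these, 45 (0.29%) were at least as long as the run at Olig2, and the longest was 24 kb. With a limit of 5% the run was 7 kb long (0.93% of runs as long), and with a limit of 20% it stayed at 12 kb (0.358%). With windows of a single CpG allowed it was 10 kb (0.459%), at chr16:91017001-91027000, and ended before the highest CpG.

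**Figure D1:**
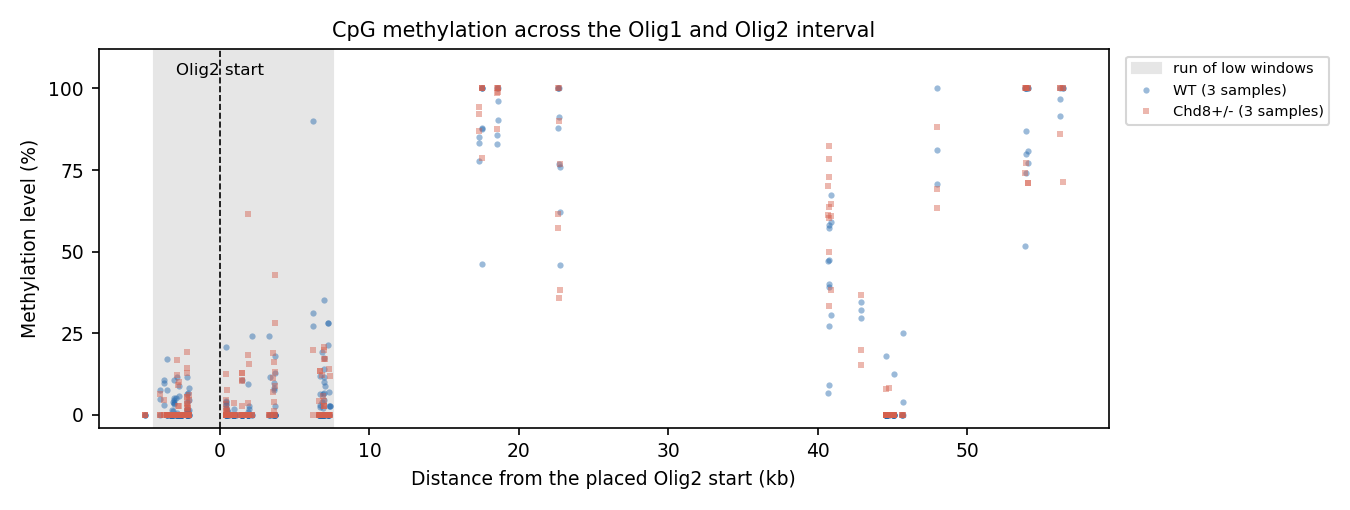
Methylation level (%) of each CpG in each of the 6 samples against its distance in kb from the Olig2 start, with circles for the 3 WT and squares for the 3 Chd8+/- samples; the grey band is the run of low windows. Most points of both genotypes lie near 0 from −4.437 kb to 7.562 kb, where 7 CpGs exceed 25% in at least 1 sample, and again near 44.8 kb; elsewhere levels range from low to full.

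**Figure D2:**
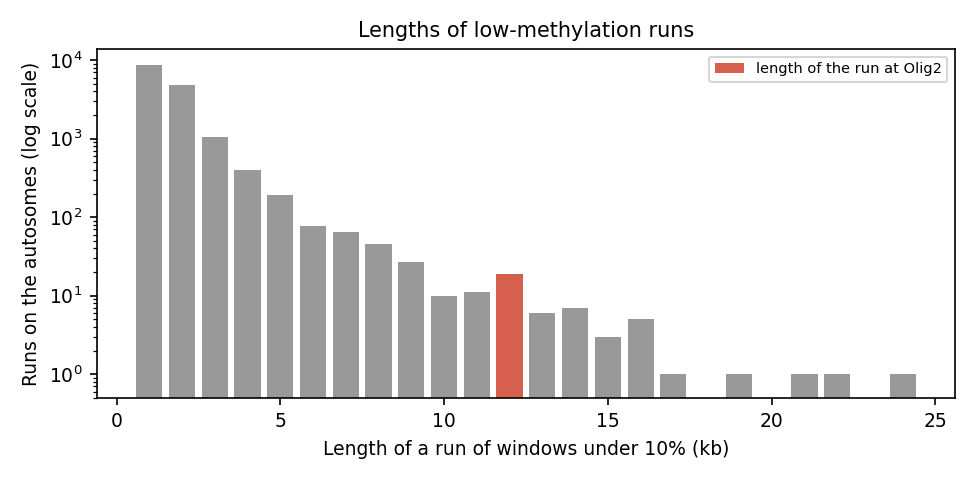
Number of runs of windows under 10% on the autosomes (log scale) by their length in kb, 15527 runs in all. The bar at 12 kb, the length of the run at Olig2, lies in the thin tail beyond the median of 1 kb.

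Over the 60 CpGs of the run that all 6 samples covered, the mean level stood at 1.30%, 1.53% and 3.55% in WT and 1.74%, 2.94% and 1.87% in Chd8+/-. The Chd8+/- values fall within the WT range. The means were 2.13% ± 1.24 and 2.18% ± 0.661 (SD, n = 3 each), with a difference of 0.05 points, a standard error of 0.809 and an exact two-sided permutation p = 1. WT replicate 3 was the highest of the 6.

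At the Olig2 promoter itself, within 1000 bp of the start, 9 CpGs were covered in all samples. All of them lie after the start, from position 91022816 to 91023360, so the values below do not read the bases before it. Their mean level stood at 0.651%, 1.15% and 2.82% in WT and 1.49%, 2.12% and 0.514% in Chd8+/-. The groups overlapped, with a difference of −0.17 points (standard error 0.805, exact permutation p = 0.9), and the difference turned to 0.471 without WT replicate 3 and to 0.262 without Chd8+/- replicate 3. Those are the libraries with the higher share of coverage on chromosome X, and the part of that trait was not tested. Such a level is common for promoters that RRBS reads. Among 7696 placed promoters with at least 3 covered CpGs, 91.6% were under 10%, the median was 0.668%, and 5533 (71.9%) lay below the Olig2 mean of 1.46%. On the 300 bases of the promoter sequence, the WT libraries listed 10, 8 and 4 CpGs and no methylated read at any of them. With 17, 20 and 12 reads at the deepest CpG, 0 reads allow a level of up to 17.6%, 15% and 25% by counting error. No CpG there reached 10 reads in a Chd8+/- library, so the genotypes cannot be compared on the printed bases. The member CpG nearest to the start, 378 bp after it at position 91022816, had 4.29%, 3.88% and 0% in WT and 4.40%, 12.5% and 1.20% in Chd8+/- at 28 to 103 reads.

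Outside the run the levels were mixed: of 41 CpGs, 19 were under 10%, 8 from 10% to 80% and 14 at 80% or more. The cluster 17.4 kb after the Olig2 start, at chr16:91039768-91039953 had 1 CpG covered in every sample, with 85.2%, 83.3% and 77.7% in WT and 86.8%, 94.4% and 92.1% in Chd8+/-. A cluster 40.8 kb after the start held CpGs of intermediate level. There the CpG at position 91063316, one of the deepest of the interval at 84 to 174 reads, had 30.7%, 67.2% and 59.0% in WT and 64.6%, 38.1% and 61.1% in Chd8+/-. Its neighbour at position 91063173 had 39.0%, 58.1% and 47.4% in WT and 78.4%, 60.3% and 82.2% in Chd8+/-. Both CpGs were chosen here after their values were seen. The second set does not overlap between genotypes and the first does, though the CpGs lie in one cluster.

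Unmethylated DNA returned 44.8 kb after the Olig2 start. In RefSeq order Olig1 follows Olig2, with a lncRNA gene between, and the next placed protein-coding start, that of the interferon receptor gene Ifnar2, lies 147.233 kb from Olig2, outside the interval. The cluster at chr16:91066959-91067505 held 16 CpGs, 11 of them covered in every sample. Its level over those 11 stood at 1.62%, 0% and 0% in WT and 0%, 0.718% and 0% in Chd8+/-. It lies on the Olig1 side of Olig2, but with no placed start it is not called the Olig1 promoter here. The window with the lowest level in the interval, chr16:91066001-91067000, belongs to it, with 0% in all 3 WT samples and 0%, 1.56% and 0% in Chd8+/-. The low run there was 2 kb long, a length that 43.6% of runs reach. Beyond it the level rose again, to the highest window of the interval, chr16:91076001-91077000, at 90.4%, 93.2% and 83.1% in WT and 84.2% and 93.8% in Chd8+/- replicates 1 and 3.

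The Mbp interval was of another kind, with methylated and partly methylated CpGs along most of its 125 kb. Of its 131 CpGs, 35 (26.7%) were under 10%, 62 (47.3%) from 10% to 80% and 34 (26.0%) at 80% or more. In the Olig interval 82.7% were under 10% and 8% between, and in the Gfap interval 57.8% and 24.4%. On the autosomes the shares were 40.0% under 10% and 25% between. The share of CpGs in the middle was thus 47.3% at Mbp against 25% on the autosomes, as a description of the CpGs that RRBS read. At the 32 intermediate CpGs (20% to 80%) covered in every sample, the SD over the 6 samples had a median of 14.4 points, against 16.2 points at 121532 such CpGs on the autosomes. The variance was 3.95 times that expected from read counts, against 5.45 times on the autosomes.

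**Figure D3:**
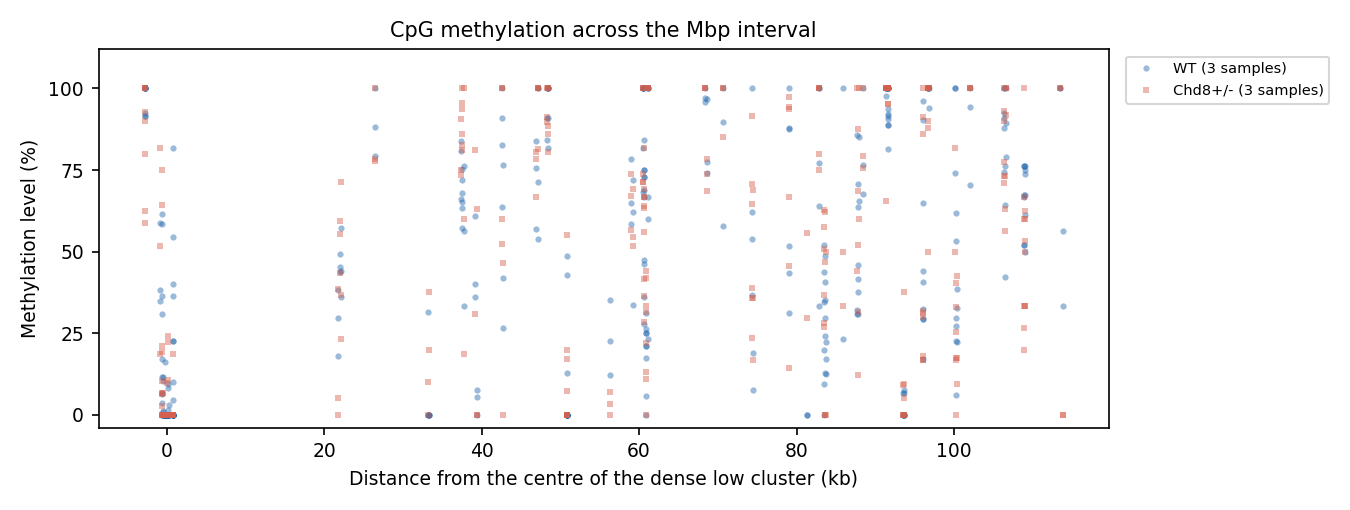
Methylation level (%) of each CpG of the Mbp interval in each of the 6 samples against its distance in kb from the centre of the dense low cluster, with circles for the 3 WT and squares for the 3 Chd8+/- samples. Low levels gather at 0 kb, and levels from 0 to 100% are spread over the rest in both genotypes.

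One dense cluster of 37 CpGs at chr18:82492738-82494399 was low. The 21 CpGs covered in every sample had a mean of 6.87%, 4.72% and 4.86% in WT and 6.74%, 9.21% and 1.51% in Chd8+/-. The Chd8+/- values lie on both sides of the WT values, and the difference was 0.33 points with a standard error of 2.37 (exact permutation p = 1). Within the cluster the middle was lowest. The window chr18:82493001-82494000, the lowest of the interval, had 25 CpGs and a level of 0.798%, 2.12% and 0.108% in WT and 2.56%, 0.409% and 0.185% in Chd8+/-. Whether this cluster holds the start of a classical or a Golli transcript was not analysed here. Outside the cluster, 59 CpGs had a mean of 63.8%, 62.2% and 63.7% in WT and 62.8%, 62.4% and 63.5% in Chd8+/-. The 6 samples lay between 62.2% and 63.8%.

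Partly methylated stretches recurred along the Mbp interval. The cluster at chr18:82554071-82554673, with 11 CpGs, had 62.3%, 49.7% and 58.3% in WT and 56.1%, 58.4% and 56.1% in Chd8+/- over the 6 CpGs covered in every sample. A single CpG at position 82515582, chosen after its values were seen for its depth of 60 to 130 reads, had 49.2%, 45.4% and 43.8% in WT and 55.4%, 59.3% and 43.3% in Chd8+/-. Toward the far end the level fell once more, in 3 CpGs at chr18:82587139-82587201, with 2.22%, 4.71% and 0% in WT and 4.70%, 3.10% and 12.5% in Chd8+/-. The genotypes overlapped in each of these stretches.

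In the Gfap interval, 26 of the 45 CpGs were under 10%, 11 from 10% to 80% and 8 at 80% or more. Of the 45, 20 lay within 1000 bp of the Ccdc103 start. The 15 of these covered in every sample had a mean of 0%, 0.827% and 0% in WT and 1.04%, 0.314% and 0.153% in Chd8+/-. Over the printed promoter and the 50 bases after it, reads were summed over CpGs, so a read can count more than once. By that sum 15 of 1015 were methylated in WT replicate 2, which had the largest sum. The other 25 CpGs include the methylated ones of the interval. The cluster at chr11:102776948-102777266, 5.06 kb after the Ccdc103 start, had 8 CpGs covered in every sample at 80.4%, 78.8% and 80.2% in WT and 84.1%, 73.8% and 84.6% in Chd8+/-. The 3 WT values lie between those of Chd8+/-, and the difference was 1.06 points with a standard error of 3.55 (exact permutation p = 1).

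A pair of clusters farther along were covered in 4 samples each. At chr11:102784065-102784112 the level was 4.17% and 0% in WT replicates 1 and 3 and 5.21% and 0% in Chd8+/- replicates 1 and 2. At chr11:102787744-102787787 it was 58.0% and 77.7% in WT replicates 1 and 3 and 64.5% and 61.4% in Chd8+/- replicates 2 and 3. Both sit on the side of Gfap, which follows Ccdc103 and Fam187a in RefSeq order, at a median depth of 26.5 and 19 reads. None of their CpGs was covered in all samples, so they enter no mean of the interval.

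**Figure D4:**
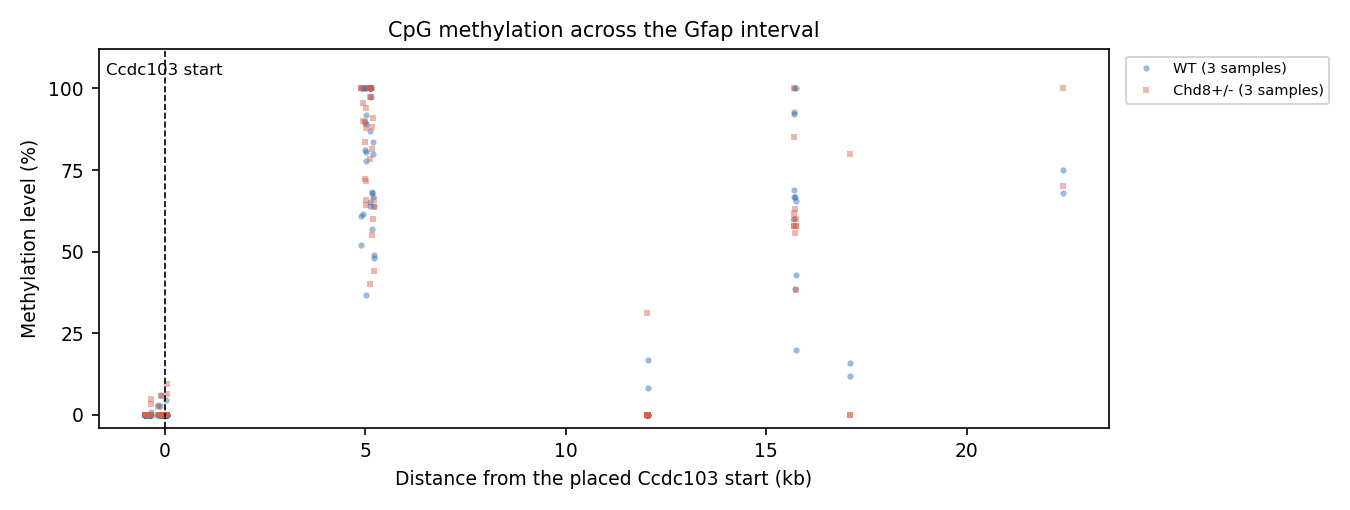
Methylation level (%) of each CpG of the Gfap interval in each of the 6 samples against its distance in kb from the Ccdc103 start, with circles for the 3 WT and squares for the 3 Chd8+/- samples. Levels near 0 stand at the Ccdc103 start and near 12 kb, and high or partial levels near 5.06 kb and 15.7 kb.

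The contrast of the Olig interval with the other loci was taken within each sample, where both are read from the same library. Over 82 CpGs the Olig interval averaged 10.2%, 10.8% and 11.9% in WT and 11.1%, 10.5% and 10.9% in Chd8+/-. The 80 CpGs of the Mbp interval averaged 48.9%, 47.1% and 48.3% in WT and 48.1%, 48.4% and 47.2% in Chd8+/-. The Mbp interval was thus higher in each of the 6 samples, by 36.3 to 38.7 points with a mean of 37.1 (exact two-sided sign-flip test, p = 0.03125, the smallest that 6 samples allow). That p says only that the sign held in every sample, and other pairs of loci were not compared. The size of the gap depends on how many dense low CpGs enter. Of the 82 Olig CpGs 60 lay in the low run, and of the 80 Mbp CpGs 21 in the dense cluster. Outside those stretches the means over the 6 samples were 34.8% at Olig and 63.1% at Mbp. The mean autosomal level was 47.7% to 49.0%, near that of the Mbp interval and above that of the Olig interval. The SD over the 6 samples was 0.598 points for the Olig interval and 0.698 points for the Mbp interval.

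The 23 CpGs of the Gfap interval averaged 28.0%, 27.9% and 27.9% in WT and 29.9%, 25.9% and 29.5% in Chd8+/-. They exceeded the Olig interval in each of the 6 samples (exact sign-flip p = 0.03125, again only for the sign). The gap ran from 15.4 to 18.8 points with a mean of 17.3. This size rests on how many CpGs of the Ccdc103 promoter enter. It was 4.99 points at a minimum of 20 reads, 9.25 points with CpGs weighted by reads, and 69.4 points (63.3 to 73.7 over the samples) without the Ccdc103 promoter. The last value rests only on the 8 CpGs of the cluster at chr11:102776948-102777266. The low cluster at chr11:102784065-102784112 does not enter, so it is no level of the whole Gfap locus. The Mbp contrast was 42.1, 32.1 and 37.2 points at a minimum of 20 reads, over CpGs covered in at least 2 samples per genotype, and weighted by reads. Within the Olig interval, the 22 CpGs outside the low run averaged 34.3%, 36.1% and 34.7% in WT and 36.7%, 31.1% and 35.7% in Chd8+/-, 28.1 to 34.9 points above the CpGs inside it, a gap that follows from how the run was defined and was not tested.

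**Figure D5:**
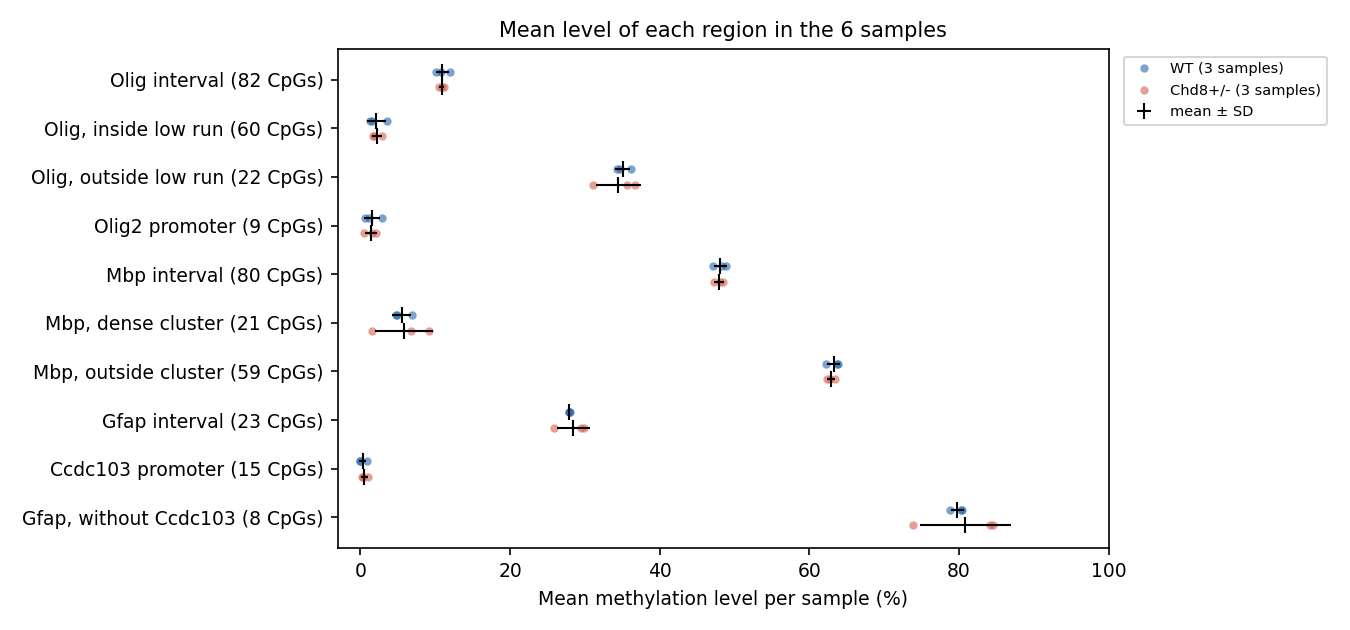
Mean methylation level (%) of each region per sample, one point per sample, with bars for the mean ± SD of 3 samples per genotype. Levels run from near 0 at the Ccdc103 promoter and in the low run at Olig2 to near 80% in the Gfap interval without that promoter. That last region holds only the 8 CpGs of the cluster at chr11:102776948-102777266. The genotypes overlap in every region drawn.

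Between genotypes, the samples of the 2 groups overlapped in each of the 3 intervals. The Olig interval had 11.0% ± 0.884 in WT and 10.8% ± 0.320 in Chd8+/- (SD, n = 3 each), a difference of −0.12 points with a standard error of 0.543 (exact two-sided permutation p = 0.9). For Mbp it was 48.1% ± 0.885 and 47.9% ± 0.638, a difference of −0.19 points with a standard error of 0.630 (exact permutation p = 0.8). For Gfap it was 27.9% ± 0.0231 and 28.4% ± 2.23, a difference of 0.52 points with a standard error of 1.29 (exact permutation p = 1). Adjusted over the 3 intervals each p was 1, and the smallest that 3 samples against 3 allow is 0.1. The signs are not stable. The Olig difference was 0.354 without WT replicate 3 and 0.0575 without Chd8+/- replicate 2, that of Mbp was 0.207 without WT replicate 1 and 0.168 without Chd8+/- replicate 3, and that of Gfap was −0.226 and −0.0227 without Chd8+/- replicates 1 and 3. Without Chd8+/- replicate 2 the Gfap difference was 1.80 points, with both other Chd8+/- samples above all 3 WT samples (exact permutation p = 0.1, the smallest that 2 against 3 allow). The contrasts moved as little with genotype, by −0.06 points for Mbp minus Olig (standard error 0.932, exact permutation p = 0.8) and by 0.64 points for Gfap minus Olig (standard error 1.22, exact permutation p = 0.6).

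No single CpG or window of these intervals was called. In edgeR's quasi-likelihood fit over 609673 autosomal CpGs, 0 of the 235 member CpGs that could be tested passed a Benjamini-Hochberg adjusted p of 0.05, and 0 passed on the autosomes (0%). The lowest adjusted p among the members was 0.657. At an unadjusted p under 0.05 stood 6 members (2.55%), 3 higher and 3 lower in Chd8+/-. On the autosomes it was 3.02% of all CpGs (1.75% higher and 1.27% lower), so the share over the 3 intervals together was near the background. Of the 6, 5 lay in the Olig interval (5.26% of 95 tested) and 1 in the Mbp interval (0.901% of 111). At Gfap it was 0 of 29. limma called 0 members (0% of all CpGs) and left 14 of the 235 under an unadjusted 0.05, a slightly larger share than the 5.11% of all CpGs. Of the 39 windows of 1000 bp, 0 passed (0% of 102017 on the autosomes), and 1, higher in Chd8+/-, had an unadjusted p under 0.05 (2.56%) against 3.57% of all windows, 2.00% higher and 1.57% lower. limma called 0 windows and left 5 of the 39 under an unadjusted 0.05. That is a larger share than the 5.11% of all windows, a gap that was not tested.

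The CpGs with the smallest p in each direction were picked as extremes of those tested, so their differences do not stand for the members at large. At position 91026011, 3573 bp after the Olig2 start, no WT sample had a methylated read, and the Chd8+/- samples had 19.0%, 11.2% and 6.90% at 63 to 130 reads (edgeR quasi-likelihood adjusted p = 0.784). At position 91019346, at −3092 bp from the start, the WT samples had 3.2%, 10.6% and 3.57% and no Chd8+/- sample had a methylated read at 70 to 219 reads (edgeR adjusted p = 0.657). Both lie inside the low run, and they point opposite ways. The next in each direction were position 91019639, where 1 Chd8+/- sample had 9.26% and the other 5 samples 0%, and position 91019357, with 5.09%, 0% and 4.59% in WT and 0% in Chd8+/-. The windows of the run did likewise: chr16:91026001-91027000 had 3.42% ± 3.26 in WT and 10.3% ± 2.91 in Chd8+/-, and chr16:91018001-91019000 had 5.64% ± 2.29 and 1.44% ± 1.25 (SD, n = 3 each), each with an edgeR adjusted p of 1. The first of these windows holds position 91026011, so it is not independent of that CpG. Chd8+/- replicate 3 did not cover its CpGs at positions 91026119 to 91026129.

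At Mbp the CpG highest in Chd8+/- by this order, at position 82531093, had 57.1%, 72.0% and 63.3% in WT and 100%, 95.5% and 81.0% in Chd8+/- at 41 to 82 reads (edgeR adjusted p = 1). The second, at position 82561902, had 96.0%, 100% and 97.1% in WT and 100% in each Chd8+/- sample. In the other direction, position 82549895 had 22.7%, 35.3% and 12.2% in WT and 6.90%, 3.45% and 0% in Chd8+/-, and position 82490770 had 100% in WT and 92.9%, 90.0% and 62.5% in Chd8+/-. The window chr18:82585001-82586000, also the highest of the interval, had 93.9% ± 2.93 in WT and 99.3% ± 1.17 in Chd8+/- (SD, n = 3 each; edgeR adjusted p = 1). The window chr18:82494001-82495000, at the edge of the dense cluster, had 29.8%, 1.65% and 15.0% in WT and 0%, 3.19% and 0% in Chd8+/- (edgeR adjusted p = 1). These levels do not rest on the same CpGs. Chd8+/- replicate 3 covered only positions 82494306 to 82494337, where WT levels were 0% to 4.55%. Chd8+/- replicate 1 covered only positions 82494389 to 82494399. The log2 change of this window, −3.48, turned to 1.52 without Chd8+/- replicate 1. That fit also lost the CpGs at positions 82494389 to 82494399, which Chd8+/- replicate 3 did not cover. The sign was therefore not tested on the same CpGs.

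At Gfap no CpG had an unadjusted p under 0.05 (edgeR). Position 102776948 had 100%, 52.2% and 60.8% in WT and 100% in Chd8+/- replicates 1 and 3, and position 102771709 in the Ccdc103 promoter had 0%, 0.885% and 0% in WT and 3.41%, 4.71% and 0% in Chd8+/-. On the lower side, position 102771938 had 2.66% in WT replicate 2 and 0% elsewhere, and position 102784112 had 16.7% in WT replicate 1 and 0% in the 3 other samples that covered it. Among the windows, chr11:102772001-102773000 went from 0.152% ± 0.262 to 1.35% ± 1.17 (SD, n = 3 each), and chr11:102787001-102788000 had 57.9% and 76.9% in WT and 64.0% and 61.2% in Chd8+/-. The lowest window, chr11:102771001-102772000, had 0.366% ± 0.634 and 0.448% ± 0.0869, and the highest, chr11:102777001-102778000, 78.5% ± 4.83 and 80.7% ± 4.81 (SD, n = 3 each).

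Clusters of CpGs, at most 500 bp apart, gave values in every sample at 26 of 32 places. At 5 of the 26 the genotypes did not overlap, 4 higher and 1 lower in Chd8+/-. Over 87542 autosomal clusters 9.53% did not overlap, 5.69% with Chd8+/- above and 3.83% below. The share among the 26 was thus larger than on the autosomes, and the gap was not tested. The 4 higher ones were the single CpG of the cluster at chr16:91039768-91039953, given above, the 2 CpGs at chr16:91025749-91026129 (2.99% in WT and 9.74% in Chd8+/-), and, at Mbp, chr18:82531006-82531347 (66.5% and 79.7%) and chr18:82584953-82585225 (94.97% and 99.4%). The cluster at chr16:91025749-91026129 includes position 91026011, picked above by its p, so it is not independent of that CpG. The lower one was chr18:82602488-82602536, with 75.9%, 65.7% and 57.1% in WT and 51.5%, 50% and 48.3% in Chd8+/-. These 5 rest on CpGs covered in every sample. With each sample averaged over all the CpGs it covered, 2 of the 5 stayed apart, the cluster at chr18:82531006-82531347 and the lower one, and 3 overlapped. By that measure 4 of 27 clusters did not overlap, 2 higher and 2 lower, again a larger share than the 9.68% of autosomal clusters. Depth also separated the genotypes, and its part in these differences was not tested.

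Promoters of other glial and neuronal genes were read where they could be placed. Of 16 oligodendrocyte-lineage genes 4 were placed. Ugt8a, the enzyme that makes galactocerebroside for myelin, had 1.15% in WT and 2.50% in Chd8+/-, and Sox8, a transcription factor related to Sox10, 6.55% and 2.51%. Cldn11, the tight junction protein of myelin, had 5.98%, 11.8% and 13.3% in WT and 19.0%, 19.2% and 15.1% in Chd8+/-, with no overlap (exact permutation p = 0.1, the smallest possible). Mag, a myelin adhesion protein, had 55.3%, 59.0% and 27.8% in WT and 52.0%, 55.1% and 76.5% in Chd8+/- over 3 CpGs. The list thus had 1 promoter of 4 without overlap, against 8.82% of all 7696 placed promoters (3.53% above and 5.29% below), and a median level of 9.30% against 0.668%. With promoters cut to 250 bp before and 50 bp after the start, 2 of the list gave a value and both overlapped. The lower had a mean of 0%, where groups cannot separate, and the higher a mean of 54.3%. This cut therefore could not test the separation at Cldn11.

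Of 16 astrocyte genes 4 were placed, none without overlap. The Notch target Hes5, the helix-loop-helix inhibitor Id3 and the filament gene Vim were under 2% in every sample, and Aldh1l1, a folate enzyme used as an astrocyte marker, had 15.1% ± 6.04 in WT and 14.6% ± 1.55 in Chd8+/- (SD, n = 3 each). Of 16 neuron genes 5 were placed and 4 had at least 3 covered CpGs. Bcl11b, a transcription factor of deep-layer neurons, Map2, a microtubule protein of dendrites, Syt1, a calcium sensor of synaptic vesicles, and Tubb3, a neuronal tubulin, were under 4% in every sample, and their genotypes overlapped. None of 8 microglia genes was placed. Beside these, the Olig2 promoter had 1.54% ± 1.14 in WT and 1.37% ± 0.810 in Chd8+/- (SD, n = 3 each), next to 1.15% and 2.50% at Ugt8a. Olig2 lay above Ugt8a in WT replicate 3 (2.82% and 1.09%) and Chd8+/- replicate 1 (1.49% and 1.15%), and below it in the other samples. The genotypes overlapped at both promoters, so the order of the means shows no genotype difference.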

How the data were processed

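RRBS, which sequences bisulfite-converted DNA cut by MspI at CCGG, was deposited for 3 WT and 3 Chd8+/- neocortex samples. Build mm39, SAMtools 1.9, Bismark 0.20.0 and Trim Galore 0.4.4 are listed in the submitters' processing notes; settings and deduplication are not given in the sources used here. Coverage is a count of reads per CpG cytosine, per the file headers, and the shares read as cytosine and thymine are deposited as percent. No cytosine under 10 reads is listed, and coverage times percent gave whole methylated reads (tolerance 0.02) for 99.96% to 99.97% of cytosines.

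The strands of a CpG were merged by adding reads. Member CpGs needed 10 merged reads in at least 2 samples per genotype. Regional levels were unweighted means over CpGs with 10 reads in all 6 samples. They were compared by exact two-sided permutation tests, where 3 against 3 samples can give no p below 0.1. Single CpGs and windows of 1000 bp with at least 3 CpGs were fitted over all autosomes with the quasi-likelihood test of edgeR 4.0.16 on methylated and unmethylated counts (R 4.3.3), with Benjamini-Hochberg adjustment and calls at 0.05. Features at 0% or 100% in every sample were left out. Window levels summed reads over the CpGs that a sample covered at 10 reads, so samples can differ in their CpGs. limma 3.58.1, on the log2 of methylated plus 1 over unmethylated plus 1 reads, was an alternative. Other steps used matplotlib 3.10.9, numba 0.67.0, scipy 1.17.1, pandas 2.3.3, numpy 2.4.6 and Python 3.11.15.

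No mm39 annotation was used. RefSeq promoter sequences (GRCm38.p6, 250 bases before to 50 after a gene's start) were placed on mm39 by matching their CG positions to the listed CpGs. At least 5 matches were needed, and the next best offset had to reach less than 75% of them. Of 31396 autosomal sequences 9627 were placed (30.7%). Of the placed ones, 99.08% had the same shift between the builds as any of the nearest placed promoters of another gene. Of the 4 genes, Olig1 and Mbp had no sequence in the table and Gfap could not be placed. Their planned promoter and gene-body comparisons were therefore replaced by clusters of CpGs, at most 500 bp apart and at least 3 to a cluster, and gene bodies were not analysed here.

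The members and gene lists were chosen with earlier results of these data known. The text names, in each interval, the 2 CpGs and 1 window with the smallest edgeR p in each direction, the CpG nearest to a placed start, the lowest and highest windows, and up to 4 genes with the most covered promoter CpGs from lists of 16 oligodendrocyte-lineage, 16 astrocyte, 16 neuron and 8 microglia genes. Clusters, the low run and the Ccdc103 promoter were singled out after their values were seen.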

Additional observations from a re-analysis of the deposited data

How the results depend on the processing

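Depth limits these values most at the Olig2 start, where no Chd8+/- library has a CpG with 10 reads, and at the Gfap clusters read in 4 samples. No member CpG or window was called by edgeR or limma under any alternative run. The genotype differences, with overlapping groups in the values reported, changed sign as follows; the cause was not tested. At a minimum of 20 reads they were 0.634 points for Olig, 1.57 for Mbp and 0.932 for Mbp minus Olig. Over CpGs covered in at least 2 samples per genotype they were 0.231 for Olig, 2.01 for Mbp, 0.0242 for the Olig2 promoter and 1.78 for Mbp minus Olig. Weighted by reads they were 2.72 for Mbp, 0.0581 for the Olig2 promoter and 3.58 for Mbp minus Olig. The Gfap difference was −0.0817 when centred on each sample's autosomal mean, the Olig2 promoter difference 0.551 with 2000 bp either side, and the Olig difference 0.0544 inside the low run, an alternative chosen after seeing the data, as was leaving out the Ccdc103 promoter. Leaving out each sample in turn gave ranges of −0.521 to 0.354 points for Olig, −0.665 to 0.207 for Mbp, −0.226 to 1.80 for Gfap (1.80 without Chd8+/- replicate 2, where the groups no longer overlap, exact permutation p = 0.1), −0.614 to 0.471 for the Olig2 promoter and −0.510 to 0.728 for Mbp minus Olig. The contrasts within samples ranged from 36.8 to 37.3 points for Mbp minus Olig and from 17.0 to 17.7 for Gfap minus Olig, each with p = 0.0625, the smallest that 5 samples allow in the exact sign-flip test. The log2 change of the Mbp window at position 82494001 ranged from −7.29 without Chd8+/- replicate 3 to 1.52 without Chd8+/- replicate 1. Both fits also lost CpGs of the window, so the range does not come from a fixed set of CpGs. The oligodendrocyte list had 0 promoters without overlap at 250 bp before to 50 bp after the start, of 2 with a value, the lower at a mean of 0%. That could not test the separation at Cldn11. Samples with the same replicate number did not deviate together (r = 0.0057, −0.0025 and 0.0042 over 69396 windows), so the numbers were not taken to pair them, although replicate 3 of both genotypes shares a higher share of coverage on chromosome X (2.58% and 2.56%, against 1.18% to 1.21%). With the replicate number as a block the differences kept their values, −0.120 for Olig, −0.185 for Mbp, 0.517 for Gfap, −0.168 for the Olig2 promoter, −0.0648 for Mbp minus Olig and 0.637 for Gfap minus Olig, with exact sign-flip p from 0.75 to 1 (the smallest possible is 0.25), and the edgeR fit with the replicate block called 0 CpGs and 0 windows. The Olig2 promoter from 250 bp before to 50 bp after the start gave no value, since 0 of its CpGs were covered in all 6 samples; the promoter alternatives of Olig1, Mbp and Gfap and those of gene bodies were not run.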
